A study of Mus musculus with 4 samples.

Results

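Of the 54149 genes listed for these livers, 37 encode glutathione transferases or enzymes that build, recycle or degrade glutathione. They are the protein-coding genes whose symbols begin with Gst and a further letter or with Mgst and a digit, 26 in all, together with 11 named genes, Gclc, Gclm, Gss, Gsr, Ggct, Ggt1, Ggt6, Gpx1, Gpx4, Oplah and Chac2. The rule used gene names and biotypes and no measured value, but it was set with earlier results of these data known. A mean of at least 1 FPKM (fragments per kilobase of gene length, scaled to a library total) over the 4 libraries was reached by 31 of the 37, and these were tested.

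The knockout (KO) group was adult female mice with a liver-specific deletion of Utx, the histone demethylase gene listed as Kdm6a, and the wild-type (WT) group was sex- and age-matched controls. Both groups had a C57BL/6 x 129S4/SvJae background, were fasted for 16 h and were injected intraperitoneally with 300 mg/kg acetaminophen, so no effect of the drug itself can be read from these data. Each group had 2 libraries, and every library was a pool of liver RNA from 2 mice. Neither the Cre driver of the deletion nor the time from injection to collection is stated in the labels.

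Glutathione is a tripeptide of glutamate, cysteine and glycine that hepatocytes hold at high concentration. Cytochromes P450 oxidise part of an acetaminophen dose to a reactive quinone imine, which glutathione captures, spontaneously or through glutathione transferases, and a large dose drains the hepatic pool. The pool is refilled by glutamate-cysteine ligase and glutathione synthetase and returned from its oxidised form by glutathione reductase, and the transcription factor NRF2 is known to drive many of these genes.

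Reads were recovered from FPKM and gene length and summed over the listed genes, so the sums are not library sizes. They came to 17804730 and 16330451 reads in KO pools and 16580979 and 16669038 reads in WT pools. Of these the 37 genes took 0.880% and 0.899% in KO pools and 0.711% and 0.841% in WT pools. Kdm6a stood at 2.20 and 2.12 FPKM in KO pools, against 3.40 and 3.85 FPKM in WT pools, which did not pass the test (log2 fold change -0.63, SE 0.133, limma adjusted p = 0.0715). The table has 1 value per gene and does not resolve the deleted exons. Of 11 neutrophil marker genes, 9 were tested and 4 fell (S100a8, S100a9, Clec4d and Mmp9, with log2 fold changes between -1.97 and -1.45). Both KO pools lay below both WT pools for all 9, against 29.9% of all tested genes. At an unadjusted p of 0.05 limma gave 8 of the 9 lower, and voom called 6 lower after adjustment. With a replicate block Clec4d and Mmp9 were lost (limma adjusted p = 0.0566 and 0.0716). With 1 library left out, the 4 log2 fold changes ran between -2.25 and -1.27. S100a8 and S100a9 then passed only without WT replicate 1, and Clec4d and Mmp9 in no case. Such a fit leaves 1 pool in a group, and far fewer of all tested genes pass in it. A call lost there, here or below, is therefore not particular to its gene. The summed level of the 11 was 40.6 and 36.9 FPKM in KO pools and 121 and 185 FPKM in WT pools. Among 9 cholangiocyte markers Sox9 fell, a call that stood only without KO replicate 2 when 1 library was left out, and the sum was 43.5 and 21.003 FPKM in KO pools and 267 and 104 FPKM in WT pools, mostly from Spp1, while the defining keratins Krt7 and Krt19 were under 1 FPKM in every pool. The 10 general hepatocyte markers summed to 41321 and 31833 FPKM in KO pools and 36587 and 44722 FPKM in WT pools, and 0 of them passed the limma test or an unadjusted p of 0.05 (Alb, albumin, had a log2 fold change of -0.09). Markers of liver zones did include called genes. Of 9 tested periportal markers, 7 had a positive and 2 a negative log2 fold change, and 1 rose and 1 fell. Cdh1, the cell adhesion protein E-cadherin, fell (log2 fold change -3.98, limma adjusted p = 0.0258). It was at 1.05 and 0.574 FPKM in KO pools, against 20.7 and 19.2 FPKM in WT pools. With 1 library left out its log2 fold change ran between -4.25 and -3.72, and the call was lost without either WT pool. Cyp2f2, a cytochrome P450, rose (1.07, limma adjusted p = 0.0375, or 0.0718 with a replicate block). Of 8 tested pericentral markers, the transcription factor Tbx3 rose (1.14, limma adjusted p = 0.0350). Of these 8, 6 had a positive and 2 a negative log2 fold change, and voom called 1 higher and 1 lower. Of 4 erythroid and platelet markers, the platelet chemokine Pf4 fell (-1.53, limma adjusted p = 0.0485, or 0.0711 with the block and 0.0742 with voom). The calls of Cyp2f2, Tbx3 and Pf4 were lost without any 1 library, with log2 fold changes from 0.95 to 1.18, 1.04 to 1.25 and -1.81 to -1.24. Of 11 macrophage, 9 endothelial and 7 stellate cell and fibroblast markers 0 passed with limma or voom (0, 3 and 3 at an unadjusted p of 0.05), and the 9 lymphocyte markers averaged under 1 FPKM. Reads of mitochondrial ribosomal RNA made up 0.108% and 0.158% in KO pools and 0.244% and 0.251% in WT pools. The part of these differences in the results on glutathione genes was not tested, and in bulk liver RNA a smaller number of cells of a type looks the same as less RNA in each cell.

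In the KO livers 2 of the 31 tested glutathione genes rose, the class alpha transferase Gsta3 and the gamma-glutamyltransferase family gene Ggt6, and 0 fell. At an unadjusted p of 0.05 limma would give 8 higher and 3 lower, against 1507 and 1719 of all 11900 tested genes. After adjustment, limma voom on recovered reads called 6 higher and 0 lower, against 435 and 466 of all tested genes. The remaining 29 did not reach a limma adjusted p of 0.05, a threshold that 4.74% of all 11900 tested genes passed, 1.6% higher and 3.14% lower in KO. The 2 calls are 6.45% of the 31, a share near that background. Both KO pools lay above both WT pools for 15 of the 31 genes (48.4%), against 31.6% of all tested genes, and below both for 6 (19.4%), against 29.9%. The median log2 fold change was 0.22 over the 31 genes and 0.01 over all tested genes.

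**Figure D1:**
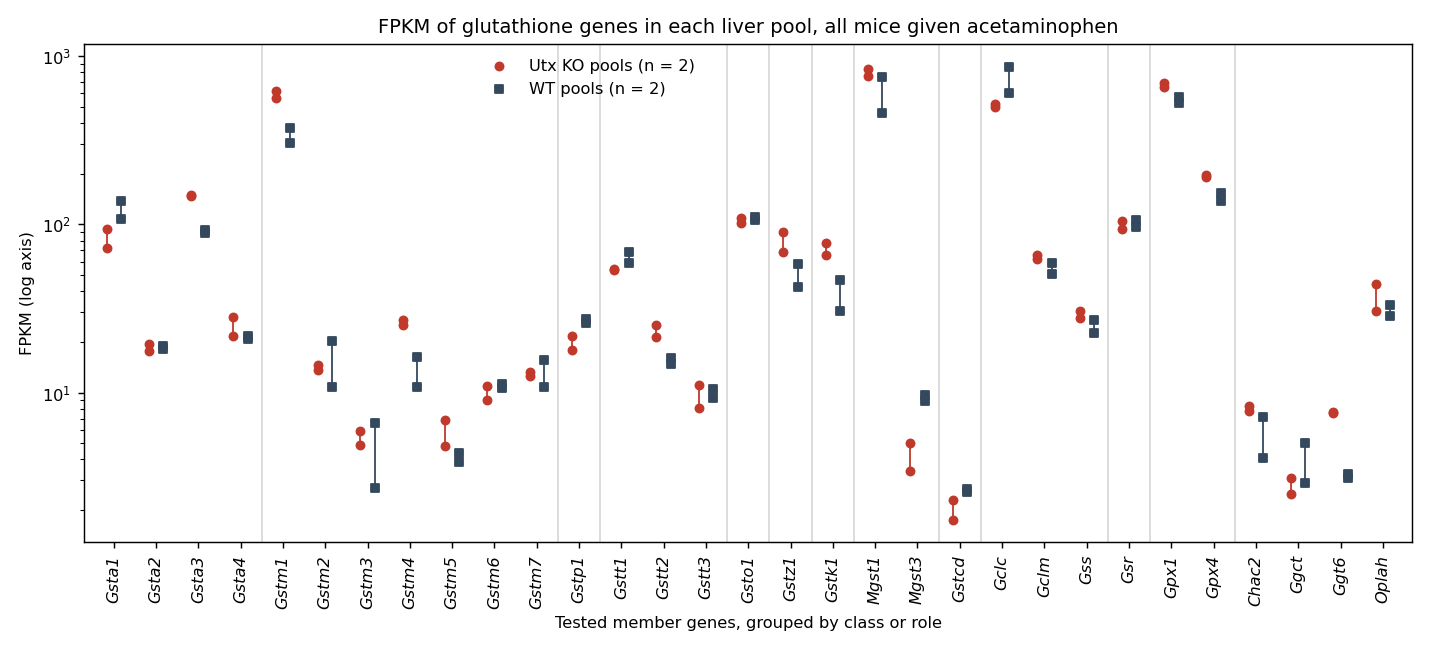
FPKM of the 31 tested genes in each liver pool on a log axis, with KO pools as red circles and WT pools as dark squares, 2 per group, joined by a line. Gsta3 (148 and 147 FPKM in KO, 92.9 and 88.8 FPKM in WT) and Ggt6 (7.62 and 7.51 FPKM in KO, 3.09 and 3.29 FPKM in WT) show close replicates and clearly separate groups. Gclc and Gsta1 lie lower in KO, with replicates that differ more for Gclc in WT and for Gsta1 in both groups.

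Gsta3, which in mice conjugates the epoxide of aflatoxin, was the only transferase gene that passed the limma test. It was listed at 148 and 147 FPKM in KO pools, against 92.9 and 88.8 FPKM in WT pools, from 11494 and 10941 reads in KO and 6826 and 6064 reads in WT. The KO pools differed from each other by far less than they differed from either WT pool. On the log2 scale the difference was 0.70 (SE 0.111, 95% confidence interval 0.41 to 0.99, limma adjusted p = 0.0477), and the gene was called in 10 of 21 alternative settings, with adjusted p between 0.0322 and 0.192. A replicate block ended the call (limma adjusted p = 0.117). Leaving out any single library also ended it, in fits where far fewer of all tested genes pass.

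The gene lies on the plus strand of chromosome 1, at chr1:21240589-21265661 of GRCm38, apart from the other alpha genes on chromosome 9. Its promoter held the core of the antioxidant response element, the site that NRF2 binds with small MAF proteins, written here as TGACNNNGC and searched on both strands. The stretch from -150 to -1 of its start is shown because Gsta3 is a called gene with such a match, set beside the same stretch of Ggt6, the other called gene, which has none, and of Gclm, a synthesis gene with a match. All 3 are from RefSeq on GRCm38.p6, given 5′ to 3′ on the plus strand, with the match in capitals, at chr1:21240435-21240584 for Gsta3, chr11:72435376-72435525 for Ggt6 and chr3:122245407-122245556 for Gclm.
Gsta3: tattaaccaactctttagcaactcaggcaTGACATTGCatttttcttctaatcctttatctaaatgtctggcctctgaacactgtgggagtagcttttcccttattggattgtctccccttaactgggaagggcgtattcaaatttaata
Ggt6: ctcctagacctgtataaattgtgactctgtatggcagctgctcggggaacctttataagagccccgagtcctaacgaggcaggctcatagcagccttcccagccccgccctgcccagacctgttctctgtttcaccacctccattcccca
Gclm: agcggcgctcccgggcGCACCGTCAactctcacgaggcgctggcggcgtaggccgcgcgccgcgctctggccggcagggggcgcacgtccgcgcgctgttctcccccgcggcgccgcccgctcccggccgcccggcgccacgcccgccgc

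Promoter entries, covering 250 bases before to 50 after a start, were matched for 32 of the 37 genes, and 7 of them (21.9%) held the motif in at least 1 entry. Over all 27025 RefSeq genes the share was 14.0%. A gene with more entries has more chances of a match. By entry the shares were 18.75% of 48 and 12.4% of 32851. The bases just after the start were found in a GENCODE transcript of the gene for 39 of the 48 entries. The seventh gene with a match was Ggt1, which was not tested. The other 4 tested genes with a match were Mgst1, Gstm7, Gstm5 and Ggct, whose 29-base windows are given to show how the letters around the fixed bases vary. They lie at chr6:138140461-138140489 (plus strand), chr3:107931725-107931753 (minus), chr3:107895802-107895830 (plus) and, for the 2 matches of Ggct, chr6:54993023-54993051 and chr6:54992844-54992872 (minus).
Mgst1: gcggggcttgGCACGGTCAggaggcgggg
Gstm7: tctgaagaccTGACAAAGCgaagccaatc
Gstm5: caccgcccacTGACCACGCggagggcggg
Ggct, before the start: caatagaaaaGCGACGTCAgtgggcggga
Ggct, after the start: tctctgtgctTGACGCTGCtggcgtggat
The capitals of Mgst1, Gclm and the first Ggct match read as GCNNNGTCA, the motif on the opposite strand. Of the 6 tested genes with a match, Gsta3 rose and the others did not pass, at log2 fold changes of 0.44 for Mgst1, 0.44 for Gstm5, 0.22 for Gclm, -0.02 for Gstm7 and -0.41 for Ggct. Gstm1, Gstm4 and Gstk1, with some of the largest positive values, had no match in these windows.

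The other alpha genes did not follow Gsta3. Gsta1 was at 72.2 and 93.8 FPKM in KO pools, against 138 and 108 FPKM in WT pools, so both KO pools were lower (log2 fold change -0.57, SE 0.202, limma adjusted p = 0.167). Gsta2 was at 17.6 and 19.5 FPKM in KO and 18.9 and 18.2 FPKM in WT, and its groups overlapped (log2 fold change -0.0009, SE 0.109, adjusted p = 0.997). Gsta4, which conjugates the lipid aldehyde 4-hydroxynonenal, was at 28.1 and 21.7 FPKM in KO and 20.9 and 21.6 FPKM in WT (log2 fold change 0.21, adjusted p = 0.427). The class as a whole was level, with 266 and 282 FPKM in KO pools and 271 and 236 FPKM in WT pools, while its makeup differed. The ratio of Gsta1 to Gsta3 was 0.487 and 0.638 in KO pools and 1.49 and 1.21 in WT pools (exact permutation p = 0.333, two-sided, the smallest that 2 against 2 pools can give), so Gsta3 was the more abundant of the pair per length in both KO pools and Gsta1 in both WT pools.

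Gsta1 and Gsta2 are near copies, and how reads were divided between them is uncertain. Their GENCODE M21 coding sequences were 97.6% identical with a shared run of 196 bases, against 74.1% for Gsta1 and Gsta3. A stretch of 100 bases with 5 differences, in capitals, shows how little separates them; it spans coding positions 415 to 514 of each gene, at chr9:78241527-78241626 on the plus strand for Gsta1 and chr9:78332119-78332218 on the minus strand for Gsta2 (GRCm38).
Gsta1: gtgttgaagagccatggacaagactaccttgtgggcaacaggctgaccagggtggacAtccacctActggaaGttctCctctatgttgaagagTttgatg
Gsta2: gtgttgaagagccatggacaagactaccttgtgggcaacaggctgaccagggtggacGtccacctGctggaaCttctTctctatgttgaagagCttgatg
Summed, the pair was at 89.8 and 113 FPKM in KO pools and 157 and 126 FPKM in WT pools (log2 fold change -0.48, SE 0.187, limma adjusted p = 0.193). The predicted gene Gm3776, 99.7% identical to Gsta1 over its coding sequence, stood at 35.8 and 43.9 FPKM in KO and 57.8 and 40.4 FPKM in WT. With it and Gm10639 added, the sum remained lower in both KO pools, at 128 and 160.4 FPKM, than in the WT pools, at 219 and 169 FPKM.

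Class mu had the highest summed level of the cytosolic classes and a larger share of transferase transcripts in KO livers, although 0 of its 7 genes passed the limma test (2 at an unadjusted p of 0.05, and 2 with voom). Gstm1, the main hepatic mu transferase, was at 624 and 562 FPKM in KO pools and 303 and 372 FPKM in WT pools, and made up 87.2% of the class (log2 fold change 0.82, SE 0.170, limma adjusted p = 0.0703). Gstm4 was at 25.1 and 26.9 FPKM in KO and 10.8 and 16.3 FPKM in WT (log2 fold change 0.95, SE 0.215, adjusted p = 0.0805). For both genes the lower KO pool was above the higher WT pool. Gstm1 passed in 4 of 21 alternative settings, with adjusted p from 0.0279 to 0.276, and Gstm4 in 1.

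The 7 mu genes sit side by side at chr3:107895821-108044894, and Gstm1 and Gstm4 are neighbours at one end of that cluster. At the opposite end Gstm5 was at 6.85 and 4.84 FPKM in KO pools and 4.35 and 3.88 FPKM in WT pools (log2 fold change 0.44, limma adjusted p = 0.222). Between them Gstm7 was at 13.2 and 12.5 FPKM in KO and 10.8 and 15.7 FPKM in WT. Gstm6 was at 10.9 and 9.06 FPKM in KO and 10.6 and 11.2 FPKM in WT. The groups of both genes overlapped. Gstm3 was at 5.91 and 4.89 FPKM in KO and 2.71 and 6.60 FPKM in WT. Gstm2 was at 14.6 and 13.7 FPKM in KO and 10.8 and 20.2 FPKM in WT. For both, the WT pools enclosed the KO values, with WT replicate 2 the highest and WT replicate 1 the lowest. A processed pseudogene, Gstm2-ps1, 85.3% identical to Gstm2, was listed at 19.8 and 17.8 FPKM in KO and 10.2 and 18.005 FPKM in WT, and Gstm2 and Gstm7 are 85.2% identical.

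Summed over the class, mu transcripts came to 701 and 634 FPKM in KO pools, against 354 and 446 FPKM in WT pools, a ratio of means of 1.67. They were 32.0% and 31.3% of the summed FPKM of the 25 transferase genes in KO pools and 25.5% and 25.1% in WT pools. All 25 together reached 2188 and 2025 FPKM in KO pools and 1388 and 1775 FPKM in WT pools. The single-gene classes kappa and zeta also took larger shares in both KO pools, whereas pi, theta and omega took smaller ones.

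**Figure D2:**
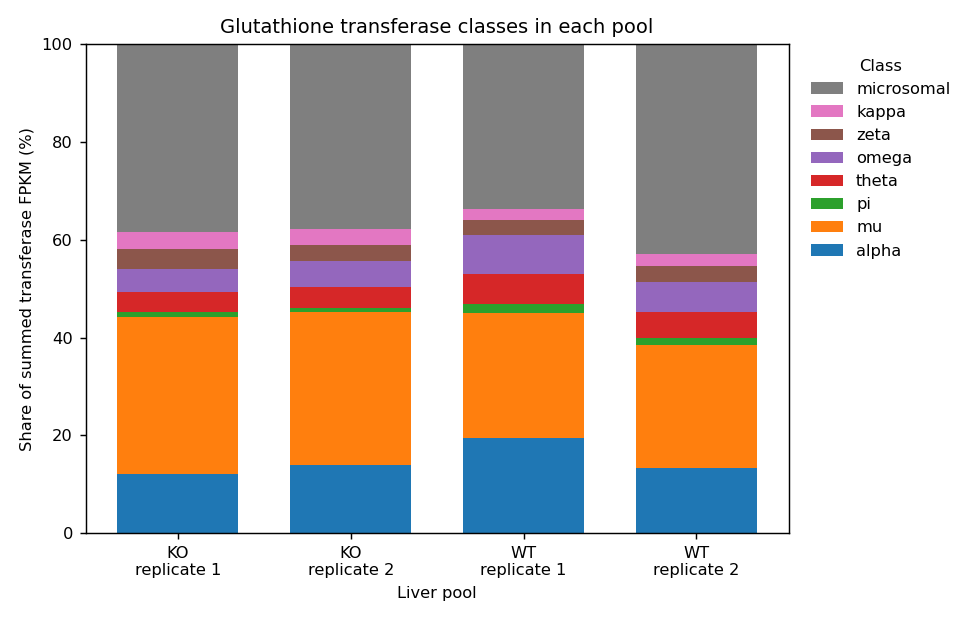
Share of the summed FPKM of 25 transferase genes held by each class, one stacked bar per liver pool. The mu share is 32.0% and 31.3% in KO pools and 25.5% and 25.1% in WT pools, and the microsomal share, at 38.4% and 37.8% in KO pools, lies between the WT values of 33.8% and 42.9%.

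The genes of classes kappa and zeta lay higher in KO without passing. Gstk1, a transferase of mitochondria and peroxisomes, was at 77.3 and 65.4 FPKM in KO pools and 30.4 and 46.4 FPKM in WT pools (log2 fold change 0.91, SE 0.236, limma adjusted p = 0.1002). Gstz1, also known as maleylacetoacetate isomerase of tyrosine breakdown, was at 89.6 and 68.6 FPKM in KO and 42.7 and 57.8 FPKM in WT (log2 fold change 0.65, SE 0.216, adjusted p = 0.147). In each case the groups did not overlap, but replicates in both groups differed by more than those of Gsta3. Gsto1, an omega transferase that reduces dehydroascorbate, was at 102 and 109 FPKM in KO and 111 and 106 FPKM in WT, with overlapping groups (log2 fold change -0.04, adjusted p = 0.838).

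Among the theta transferases, which act on small halogenated compounds, the members differed in direction. Gstt2 was at 25.3 and 21.3 FPKM in KO pools and 14.8 and 15.9 FPKM in WT pools (log2 fold change 0.58, SE 0.130, limma adjusted p = 0.0786). Gstt1 was at 54.4 and 53.6 FPKM in KO and 58.9 and 68.8 FPKM in WT (log2 fold change -0.24, adjusted p = 0.296). Gstt3 was at 11.1 and 8.12 FPKM in KO and 10.4 and 9.34 FPKM in WT, with overlapping groups. The class sum was 90.8 and 83.1 FPKM in KO and 84.5 and 94.2 FPKM in WT.

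Mice without the pi class genes are known to resist acetaminophen injury. Gstp1 was at 21.7 and 17.95 FPKM in KO pools, against 25.8 and 27.5 FPKM in WT pools, lower in both KO pools but short of the threshold (log2 fold change -0.42, SE 0.134, limma adjusted p = 0.139). Gstp2 was listed at 0.291 and 0.758 FPKM, from 4 and 10 reads, in KO pools and at 0 in both WT pools. Gstp1 and Gstp2 share 98.1% of their coding bases and an identical run of 300, so these few reads cannot be assigned with certainty. The following 100 bases, coding positions 233 to 332 on the minus strand at chr19:4036692-4036791 (Gstp1) and chr19:4040986-4041085 (Gstp2) of GRCm38, hold 6 differences, in capitals.
Gstp1: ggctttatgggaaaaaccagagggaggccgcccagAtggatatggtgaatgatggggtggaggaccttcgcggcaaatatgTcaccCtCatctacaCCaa
Gstp2: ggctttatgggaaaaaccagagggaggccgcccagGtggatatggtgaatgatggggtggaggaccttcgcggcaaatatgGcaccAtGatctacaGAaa
As a sum, Gstp1 and Gstp2 had a log2 fold change of -0.38 (SE 0.126, adjusted p = 0.146 by limma). A processed pseudogene, Gstp-ps, is 97.6% identical to Gstp1 and was listed at 3.65 and 2.50 FPKM in KO and 3.94 and 4.33 FPKM in WT. Gstp3 was listed at 0 in all 4 pools.

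The microsomal transferases are membrane proteins unrelated in fold to the cytosolic ones. Mgst1, found in the endoplasmic reticulum and the outer mitochondrial membrane, had the highest mean level of the 37 genes, at 836 and 759.6 FPKM in KO pools and 459 and 751 FPKM in WT pools (log2 fold change 0.44, SE 0.277, limma adjusted p = 0.365). The gap between the WT pools was larger than that between WT replicate 2 and the KO pools. Mgst3 was at 3.43 and 5.00 FPKM in KO and 9.70 and 8.93 FPKM in WT, the largest negative change of the tested genes, and narrowly missed the threshold (log2 fold change -1.08, SE 0.193, adjusted p = 0.0545). It rests on 67 and 94 reads in KO and 180 and 154 reads in WT, and it passed as lower in 4 of 21 alternative settings, with adjusted p from 0.0324 to 0.147. Mgst1 was 99.0% of the class sum, so the class followed it. Gstcd, which carries a transferase-like domain and belongs to none of these classes, was at 1.76 and 2.29 FPKM in KO and 2.55 and 2.68 FPKM in WT (log2 fold change -0.31, SE 0.168, adjusted p = 0.297).

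**Figure D3:**
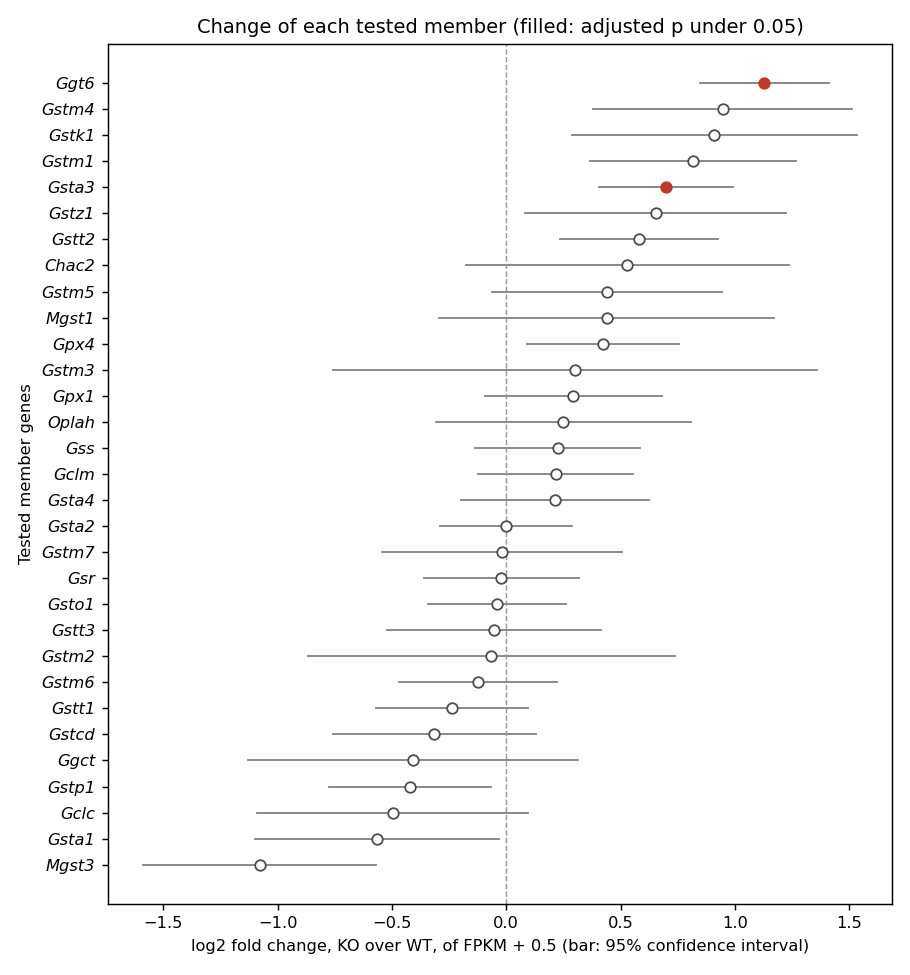
Log2 fold change, KO over WT, of FPKM + 0.5 for the 31 tested genes, with the 95% confidence interval as a bar, filled where the limma adjusted p was under 0.05. Ggt6 at 1.13 and Gsta3 at 0.70 are filled, and the genes run down to Mgst3 at -1.08.

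The genes of glutathione synthesis did not move together. Gclc, the catalytic subunit of glutamate-cysteine ligase and the rate-limiting enzyme, was at 499 and 523 FPKM in KO pools, against 600.1 and 866 FPKM in WT pools (log2 fold change -0.50, SE 0.224, limma adjusted p = 0.237). Gclm, its modifier subunit, was at 61.8 and 65.9 FPKM in KO and 50.9 and 59.2 FPKM in WT (log2 fold change 0.22, SE 0.128, adjusted p = 0.337). Gss, glutathione synthetase, was at 27.8 and 30.5 FPKM in KO and 22.6 and 27.2 FPKM in WT (log2 fold change 0.23, SE 0.137, adjusted p = 0.346). None passed, yet the KO pools lay below both WT pools for Gclc and above both for Gclm and Gss. The ratio of Gclc to Gclm was 8.07 and 7.92 in KO pools and 11.8 and 14.6 in WT pools, and that of Gclc to Gss was 17.97 and 17.2 in KO and 26.5 and 31.9 in WT (exact permutation p = 0.333 for each, two-sided, the smallest possible). These ratios do not depend on the scaling of a library. Of 5 such ratios computed, Gstm1 to Gclc differed most, at 1.25 and 1.08 in KO pools and 0.506 and 0.429 in WT pools, again with p = 0.333 by exact permutation.

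Recycling and peroxide removal gave small differences. Gsr, glutathione reductase, was at 94.1 and 105 FPKM in KO pools and 106 and 95.9 FPKM in WT pools, with overlapping groups (log2 fold change -0.02, SE 0.128, 95% confidence interval -0.36 to 0.32, limma adjusted p = 0.932). Gpx1, the abundant cytosolic glutathione peroxidase, was at 651 and 689.9 FPKM in KO and 524 and 571 FPKM in WT (log2 fold change 0.29, SE 0.147, adjusted p = 0.272). Gpx4, which reduces lipid hydroperoxides in membranes, was at 192 and 197 FPKM in KO and 137 and 153 FPKM in WT (log2 fold change 0.42, SE 0.126, adjusted p = 0.124). Both peroxidases were higher in both KO pools and neither passed.

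Glutathione breakdown held the second called gene. Ggt6, a member of the gamma-glutamyltransferase family by sequence, lies at chr11:72435526-72438400 on the plus strand and was at 7.62 and 7.51 FPKM in KO pools, against 3.09 and 3.29 FPKM in WT pools. Its replicates were close in both groups, from 247 and 234 reads in KO and 95 and 94 reads in WT. With a log2 fold change of 1.13 (standard error 0.107, 95% confidence interval 0.85 to 1.41, limma adjusted p = 0.0282), it had the highest of the 31 genes. The call stood in 16 of 21 alternative settings and was lost without a filter on low values (limma adjusted p = 0.103). Leaving out any single library also ended it, in fits where far fewer of all tested genes pass. Ggt1, the enzyme that starts extracellular glutathione breakdown in kidney and bile duct, was listed at 0.0164 and 0.0171 FPKM in KO and 0.0520 and 0.131 FPKM in WT, from 1 and 1 reads in KO and 3 and 7 reads in WT.

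Inside the cell, Chac2, which cleaves glutathione slowly, was at 8.36 and 7.72 FPKM in KO pools and 7.15 and 4.06 FPKM in WT pools (log2 fold change 0.53, limma adjusted p = 0.276). Ggct, which releases 5-oxoproline from gamma-glutamyl amino acids, was at 2.48 and 3.10 FPKM in KO and 5.04 and 2.92 FPKM in WT (log2 fold change -0.41, SE 0.273, adjusted p = 0.389). Oplah, which opens 5-oxoproline to glutamate, was at 44.0 and 30.4 FPKM in KO and 28.5 and 33.02 FPKM in WT. The groups overlapped for Ggct and Oplah, and WT replicate 1 was set apart for Ggct.

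The 6 genes not tested were Gstp2, Gstp3, Gstt4, Gsto2, Mgst2 and Ggt1, each with at most 12 reads in any pool. Gstt4 was listed at 0.0567 and 0.118 FPKM in KO pools and 0.478 and 0.129 FPKM in WT pools. Gsto2 was listed at 0.109 and 0.226 FPKM in KO and 0.114 and 0.246 FPKM in WT. Mgst2, a relative of leukotriene C4 synthase, was listed at 0.0909 and 0.0473 FPKM in KO and 0.0319 and 0.206 FPKM in WT. No direction can be read at this depth.

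WT pools differed from each other more often than KO pools for these genes. The absolute log2 difference between replicates exceeded 0.5 for 1 of the 31 genes (3.23%) in KO and for 9 (29.0%) in WT, against 12.4% in KO and 13.3% in WT over all tested genes. WT replicate 2 was the higher WT pool for 21 of the 31, among them Mgst1, Gclc and Gstm1. The median log2 fold change over the 31 was 0.08 without WT replicate 1 and 0.33 without WT replicate 2.

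**Figure D4:**
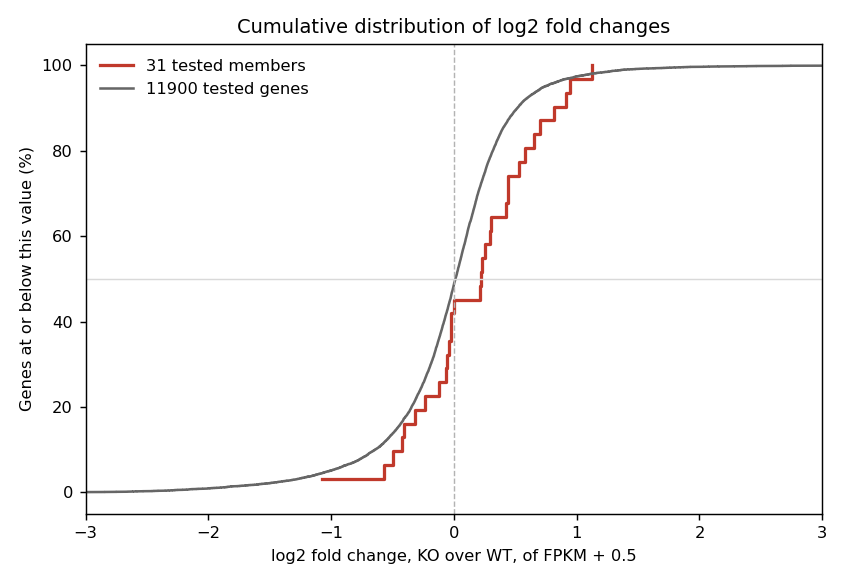
Cumulative share of genes at or below each log2 fold change, KO over WT, for the 31 glutathione genes in red and all 11900 tested genes in grey. The red line lies mostly to the right, with medians of 0.22 and 0.01, and stops at 1.13 while the grey line runs on in both directions.

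A further 64 genes of the pathway, with 66 table entries, supply cysteine and glutamate, remove aldehydes, form mercapturates, export conjugates or provide NADPH. Of 50 tested, 1 rose, 1 fell and 48 stayed short of the threshold. Their log2 fold changes had a median of 0.22, as did those of the 31 glutathione genes. Slc7a11, the cystine transporter that feeds glutathione synthesis, rose to 7.51 and 7.53 FPKM in KO pools, against 2.68 and 1.56 FPKM in WT pools (log2 fold change 1.65, SE 0.232, limma adjusted p = 0.0422). Its call was lost without any 1 of the 4 libraries, where far fewer of all tested genes pass. Clic4, an intracellular channel protein with a transferase fold, fell to 15.9 and 24.3 FPKM in KO, against 54.6 and 64.3 FPKM in WT (log2 fold change -1.56, limma adjusted p = 0.0433). Its call was lost without KO replicate 1, WT replicate 1 or WT replicate 2. With 1 library left out its log2 fold change ran between -1.86 and -1.27. Idh1, which supplies cytosolic NADPH, had a log2 fold change of 0.97 (adjusted p = 0.0501), Chac1, the stress-inducible relative of Chac2, of -1.77 (adjusted p = 0.0548) and Nat8, which acetylates cysteine conjugates, of 1.22 (adjusted p = 0.0563). Nnt, the mitochondrial NADPH-forming transhydrogenase, was listed at 0.128 and 0.149 FPKM in KO and 0.134 and 0.0904 FPKM in WT. Cyp2e1, the main P450 of acetaminophen oxidation, was at 1488 and 1506 FPKM in KO and 1156 and 1579 FPKM in WT (log2 fold change 0.15, adjusted p = 0.699).

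Among NRF2 pathway genes outside glutathione metabolism, targets moved both ways and most regulators lay lower in KO. Of 7 regulators, 3 fell (42.9%, against 3.14% of all tested genes) and 4 did not pass. Both KO pools lay below both WT pools for 6 of the 7 (85.7%, against 29.9% of all tested genes) and above them for 1, Keap1. Of 19 targets, 9 lay above and 8 below in this way. Maff, a small MAF protein, had 59.6 and 103 FPKM in KO pools against 459 and 471 FPKM in WT pools (log2 fold change -2.56, limma adjusted p = 0.0315), Mafk, another, had a log2 fold change of -1.47 (adjusted p = 0.0405) and Bach1, a repressor at the same sites, of -1.24 (adjusted p = 0.0426). Without KO replicate 1, WT replicate 1 or WT replicate 2 none of these 3 passed, and without KO replicate 2 Bach1 did not. In these fits the log2 fold changes ran between -2.95 and -2.17 for Maff, -1.69 and -1.26 for Mafk and -1.46 and -1.02 for Bach1. Nfe2l2, which encodes NRF2, was at 20.99 and 24.2 FPKM in KO and 30.3 and 37.7 FPKM in WT (log2 fold change -0.58, adjusted p = 0.107), and Keap1, its inhibitor, had a log2 fold change of 0.18 (adjusted p = 0.318). Of 19 targets, Cbr3, a carbonyl reductase, rose (log2 fold change 2.34, adjusted p = 0.0258), Osgin1, an oxidative stress response gene, fell (log2 fold change -1.90, adjusted p = 0.0315), and 17 did not pass, among them Nqo1 (0.91, adjusted p = 0.0539). The call of Osgin1 was lost without any 1 library and that of Cbr3 without KO replicate 1 or WT replicate 2. Their log2 fold changes ran between -2.14 and -1.66 for Osgin1 and 2.16 and 2.53 for Cbr3 with 1 library left out. The median was 0.11 over the targets and 0.22 over the 31 glutathione genes.

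**Figure D5:**
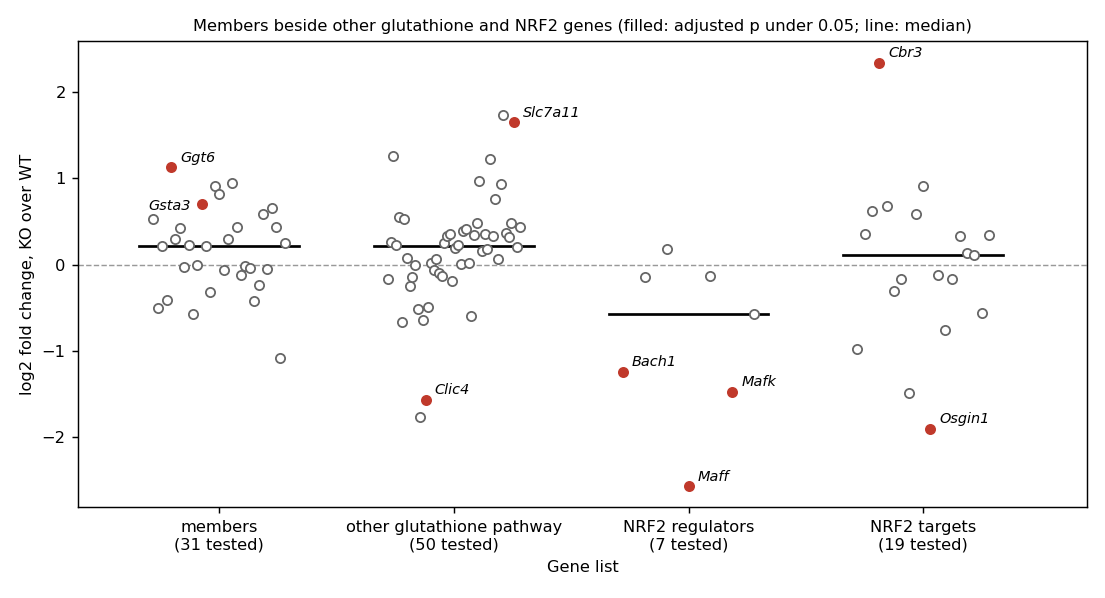
Log2 fold change, KO over WT, of the 31 tested glutathione genes, 50 other genes of the pathway, 7 NRF2 regulators and 19 NRF2 targets, with filled points for a limma adjusted p under 0.05 and a line at each median. The medians are 0.22, 0.22, -0.58 and 0.11, and the called genes are named.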

How the data were processed

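RNA was measured in 4 liver libraries, 2 KO and 2 WT, by poly(A)-selected RNA sequencing with random-hexamer priming, per the labels' protocols. Whether the libraries mark strand is not stated. The authors deposited 1 table of FPKM per gene, with gene lengths and coordinates in its header columns. The submitters' processing notes name HISAT2 2.0.5 and the genome build GRCm38.p6 (mm10) but no counting program. The product of FPKM and length gave whole reads for 100% of values, within 0.01 read, and 0 sample columns were left out.

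Log2(FPKM + 0.5) was fitted with limma 3.58.1 in R 4.3.3 (lmFit, eBayes with a mean-variance trend, two-sided p adjusted by Benjamini-Hochberg over the 11900 genes averaging 1 FPKM or more, threshold 0.05, 2 residual degrees of freedom). Every fold change is that of FPKM + 0.5 and so is too small for low genes. The p-values measure the spread between pools and cannot tell mice within a pool apart. On simulated data of this size the fit recovered most changed genes with the right sign. Its share of false calls was above the threshold in every run. The simulation gave all genes the same dispersion and planted changes larger than that of Gsta3, so these shares need not hold for the real data. Calls close to the threshold are still to be read as less certain than their adjusted p states.

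The genes, the further lists and the tests were chosen with earlier results of these data known. Every tested gene of the 37 is given with its value in each library. Fold changes with error went to the called genes, the 6 largest and the 6 smallest fold changes and to Gclc, Gclm, Gss, Gsr, Gpx1, Gpx4, Gstp1, Gsta1, Gsta2, Gsta3, Gstm1 and Mgst1 whatever their p. Of the pathway and NRF2 lists, the called genes and the 3 with the smallest p are given, and of the cell type marker lists the called genes alone, which is fewer than the rule had set, besides Nfe2l2, Keap1, Nnt, Slc7a11, Cyp2e1, Alb and Kdm6a.

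Promoters came from RefSeq on GRCm38.p6. Coding sequences came from GENCODE M21, where 33 of the 37 genes have the coordinates of the table, and were aligned with Biopython 1.88. A planned sum of genes with near-identical proteins was replaced by one over coding sequences at least 90% identical. Correlation between replicate differences of the 2 groups was -0.14 over 11900 genes, so the shared replicate numbers were not treated as pairs. Figures used matplotlib 3.10.9 under Python 3.11.15.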

Additional observations from a re-analysis of the deposited data

How the results depend on the processing

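Over 21 alternative settings, 1161 log2 fold changes of 56 single genes were recomputed: 993 kept their direction and their side of the threshold, 106 lost a call, 34 gained one and 28 changed sign. The number of glutathione genes higher in KO, 2 of 31, was 0 without a filter on low values, 1 without the mean-variance trend, with robust moderation, with the replicate block or with the GC content trend removed, 6 with voom on recovered reads, and 0 without any 1 library. The number lower in KO, 0, was 1 (Mgst3) with a mean of at least 5 FPKM, with protein-coding genes alone or with at least 50 reads, and between 0 and 1 without 1 library. Their median log2 fold change, 0.22, was 0.11 without the filter and between 0.0707 and 0.33 without 1 library. Settings whose count differed little from that of the main fit are not named, and the genes called were not always the same. Ggt6 was called in 16 of the 21 settings, Gsta3 in 10, Gstm1 in 4, and Gstm4, Gstk1 and Gstt2 in 1 each. Over all genes 190 were higher and 374 lower. These counts were 0 and 0 without the filter, 80 and 200 without the trend, 74 and 236 with the replicate block, 408 and 606 with protein-coding genes alone, 435 and 466 with voom, 322 and 545 with at least 50 reads, 211 and 255 when rescaled to listed reads, and between 0 and 51 higher and 0 and 183 lower without 1 library. Of the other pathway genes, 1 higher and 1 lower, 2 were higher with a pseudocount of 1, the median of ratios, quantile normalization, rescaling, at least 50 reads, the GC content trend removed or either block, 5 with voom or protein-coding genes alone, and 0 without the filter or the trend. Of them 2 were lower with a mean of at least 5 FPKM, voom, protein-coding genes alone or at least 50 reads, and 0 without the filter or the trend, rescaled or with the crossed block. Both counts were between 0 and 1 without 1 library. Of the NRF2 genes, 1 higher and 4 lower, 2 were higher with a mean of at least 5 FPKM, rescaling, voom, protein-coding genes alone or at least 50 reads and 0 without the filter, and 2 were lower without the trend or with the crossed block and 0 without the filter. Without 1 library they were between 0 and 1 higher and 0 and 2 lower.

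Rescaled to listed reads, Gsr turned to 0.0429, Gsta2 to 0.0613, Gstm7 to 0.0416, Gsto1 to 0.0217 and Gstt3 to 0.00591. With voom Gsr turned to 0.0441, Gsta2 to 0.0602, Gstm7 to 0.0436, Gsto1 to 0.0226 and Gstt3 to 0.00886. With quantile normalization Gsta2 turned to 0.0301 and Gstm7 to 0.0232. Without 1 library the values ran between -0.0990 and 0.0575 for Gsr, -0.0726 and 0.0707 for Gsta2, -0.50 and 0.37 for Gstm2, -0.27 and 0.87 for Gstm3, -0.254 and 0.00557 for Gstm6, -0.28 and 0.24 for Gstm7, -0.0929 and 0.00911 for Gsto1, -0.27 and 0.157 for Gstt3, -0.0138 and 0.51 for Oplah, and -0.0768 and 0.37 for Cyp2e1. Alb turned to 0.12 without KO replicate 2 and 0.03 without WT replicate 2. The library total behind the FPKM was 1.00 and 1.05 times the listed reads in KO pools and 1.02 and 0.943 times in WT pools. Rescaling and voom both use the listed reads. With them the median log2 fold change of all tested genes was 0.07 and 0.08, against 0.01 in the main fit. The cause of these changes was not tested.

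The median of all genes moved to at most 0.08. A lone library left in a group is assumed to vary like the other group. Far fewer genes pass in such a fit, so a call lost there is not particular to its gene. The crossed block and the sum over near-identical coding sequences were chosen after seeing the data, and that sum changed no call among the single genes outside it. The planned sum over near-identical proteins was not run. Genes with at most 12 reads in a pool allow no direction, and 2 pools a group limit every test.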
